A study of Mus musculus with 8 samples.

Results

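Fragments of small nucleolar RNAs (snoRNAs) were taken from a pooled list of distinct small RNA sequences of mouse testes. Members were the sequences that the authors annotated as U3, U8 or U13, or under a name beginning with snoRNA, SNO and a digit, snmRNA, or Z or z with a number. They were 5397 of 6246223 distinct sequences (0.0864%), under 44 annotation names and from 15 to 36 nt long. The labels describe 8 libraries in 8 groups, with 1 library per group. Testes came from heterozygous and homozygous tdrd6-KO mice aged 18 days, 25 days or 6 weeks, and from heterozygous and homozygous tdrd1-KO embryos at 18.5 days after conception. Tdrd1 and Tdrd6 encode Tudor-domain proteins of male germ cells. Wild-type testes are not among the labelled groups, and the labels name neither the kind of allele nor the strain. The size-selected RNA spanned 19 to 33 nt, and linkers were joined to it with T4 RNA ligase before PCR.

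The list ties no sequence to a library and holds no read number, strand or coordinate. Mutants and ages could therefore not be compared, the depth of each library is unknown, and no test was run. The values below count different sequences, whatever the number of reads behind each, so they do not measure how abundant an RNA is. Intervals are exact 95% intervals (Clopper-Pearson) that cover counting error only. Overlapping fragments of the same RNA are not independent.

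snoRNAs guide chemical modification of other RNAs in the nucleolus. Box C/D snoRNAs carry the short motifs C near the 5' end and D near the 3' end, held together by a terminal stem, and most guide 2'-O-methylation of ribosomal RNA. Box H/ACA snoRNAs fold into a pair of hairpins joined by a hinge, the box H, with an ACA box next to the 3' end, and most guide pseudouridylation. scaRNAs are their relatives in Cajal bodies and act on spliceosomal RNAs. U3, U8 and U13 are box C/D RNAs that are not ordinary methylation guides. U3 and U8 act in the processing of ribosomal RNA precursors. Most mammalian snoRNAs are cut out of introns of host genes, and some snoRNA loci also carry an annotated miRNA hairpin.

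The parents behind the results are shown first. Parents are GENCODE M21 transcripts of type snoRNA or scaRNA on GRCm38, or named Snord, Snora, Scarna or Rnu3, to which members were matched exactly over their whole length. Snord100, in an intron of the ribosomal protein gene Rps12 (chr10:23785750-23785823, minus strand, 74 nt), is a box C/D parent with fragments that hold box C and others that hold box D. Snora7a (chr6:115807975-115808114, minus strand, 140 nt), within Rpl32, is a box H/ACA parent. Capitals mark the boxes TGATGA (C) and CTGA (D) in Snord100 and the ACA box in Snora7a.
Snord100: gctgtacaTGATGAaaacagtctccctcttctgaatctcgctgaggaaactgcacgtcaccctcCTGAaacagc
Snora7a: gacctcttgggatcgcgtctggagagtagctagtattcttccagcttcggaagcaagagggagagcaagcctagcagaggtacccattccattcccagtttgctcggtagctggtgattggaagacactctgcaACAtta
A pair of scaRNA models hold an annotated miRNA, shown in capitals. The first is a model that GENCODE names Mir1839 (chr7:81529855-81529981, plus strand, 127 nt) and types as a scaRNA, with miR-1839-5p at bases 65 to 86. The other is Scarna3a (chr1:159340283-159340422, plus strand, 140 nt), in an intron of Cop1, with miR-1843b-5p at bases 80 to 100. The 4 parents were chosen after their values were seen.
Mir1839 model: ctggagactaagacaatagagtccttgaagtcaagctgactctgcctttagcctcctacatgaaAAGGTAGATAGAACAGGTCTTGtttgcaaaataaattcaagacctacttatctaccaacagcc
Scarna3a: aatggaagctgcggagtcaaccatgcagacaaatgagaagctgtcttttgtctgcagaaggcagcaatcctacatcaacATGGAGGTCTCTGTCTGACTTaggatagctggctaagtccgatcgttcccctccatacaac

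Fragments of the same RNA formed ladders that shared an end. The sequences below are the longest member at the most used 5' or 3' end of some parents, and show where in the RNA those ends lie. These parents and ends were picked after their values were seen, and sequences that ran past an end of a model are left out. Capitals mark box D or the ACA box where the fragment holds it. In the Rnu3b1 model of U3 (216 nt), 16 fragments of 15 to 33 nt began at base 76 and 19 fragments of 15 to 33 nt ended at base 215. In Snord118, the U8 RNA (135 nt), 17 fragments of 17 to 34 nt began at base 48. In the box C/D RNA Snord85, 14 fragments of 19 to 32 nt ended at base 72 of 73. In the H/ACA parent Snora81, within Eif4a2, 15 fragments of 16 to 34 nt ended at the last base, 178. In Snora30, within Srcap, 14 fragments of 17 to 35 nt ended at the last base, 130. Other H/ACA parents had smaller ladders at their most used 3' end, with 11 of 79 fragments in the Mir3068 model, 4 of 35 in Snora7a and 9 of 27 in Snora3.
Rnu3b1 from base 76 (chr11:87443312-87443344): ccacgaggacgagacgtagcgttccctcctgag
Rnu3b1 to base 215 (chr11:87443419-87443451): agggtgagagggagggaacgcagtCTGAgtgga
Snord118 from base 48 (chr11:69073474-69073507): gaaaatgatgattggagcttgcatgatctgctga
Snord85 to base 72 (chr4:130749674-130749705): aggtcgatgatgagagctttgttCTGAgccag
Snora81 to base 178 (chr16:23110900-23110933): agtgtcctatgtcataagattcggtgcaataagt
Snora30 to base 130 (chr7:127527969-127528003): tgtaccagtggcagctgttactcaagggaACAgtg
All 6 lie on the plus strand. The model of Snora81 carries ATA rather than ACA 3 bases before its end, so none of its bases is in capitals.

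The label was checked against the snoRNA models. Of the 5397 members, 4394 (81.4%, 80.4 to 82.4) matched the sense strand of a snoRNA or scaRNA model, and 144 parents received them. Another 294 (5.45%) ran past an end of a model, and 76 (1.41%) matched no transcript. A further 566 (10.5%) lay on the sense strand of another transcript and 54 (1.001%) only on the antisense strand of one. Only 13 matched a model solely on the antisense strand, which is 0.295% (0.157 to 0.504) of the 4407 sequences with a model match, and 7 of these were annotated U3. Sequences that matched models of several gene names numbered 950 (21.6%). Each sequence was counted for a single parent, the matching gene with most distinct sequences.

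Some names fitted the label less well. Of the 353 sequences named snmRNA, 101 (28.6%, 23.95 to 33.6) matched a snoRNA model and 206 (58.4%) matched the sense strand of another transcript. The most frequent of these were mt-Tp, the mitochondrial tRNA for proline, with 69 sense sequences and 30 antisense, Gm10010 with 32 and the ribosomal protein gene Rps27 with 28. Of the snmRNA matches to a model, 88 fell on Gm23262, within Eif4g2, and 9 on Snora16a. Under the general name snoRNA, 50 sequences matched Rnu11, the U11 RNA of the minor spliceosome. All but 1 of the 23 Z39 sequences matched Gm22574, which is not typed as a snoRNA. Of the 85 z12_snoRNA sequences, 34 lay within Snord104 and 51 ran past an end of a model.

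The fragments were spread over many lengths and did not form a single size class. Their most frequent length was 19 nt and their median 24 nt. The share of 24 to 33 nt, the length of piRNAs, was 48.3% (46.98 to 49.7), and the share of 19 to 23 nt was 34.7% (33.4 to 35.99). Ribosomal RNA sequences had 47.4% (46.9 to 47.9) in the longer window, tRNA sequences 46.2% (45.5 to 46.9) and spliceosomal RNA sequences 53.9% (52.6 to 55.3). It was 83.6% in mRNA sequences and 19.3% in miRNA hairpins. The snoRNA value therefore lay between those of mRNA and miRNA sequences and its interval overlapped that of ribosomal RNA.

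**Figure D1:**
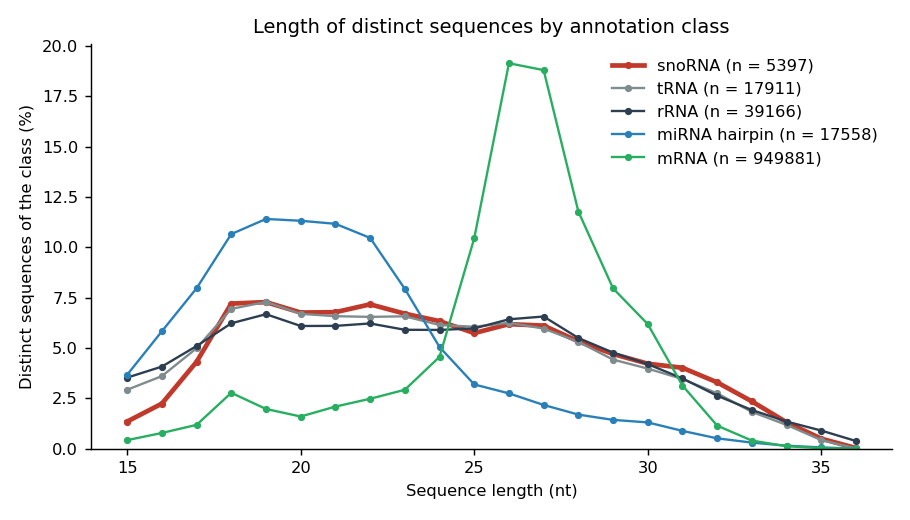
Length in nt (horizontal) against the percentage of the distinct sequences of each class (vertical), for snoRNA names and 4 other annotation classes. The snoRNA line stays nearly flat beside those of tRNA and rRNA, while mRNA sequences peak at 26 nt and miRNA hairpins at 19 nt.

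Over all lengths together, the share with T first was near the T content of the parents, but it departed from it within some length windows. T, written for the U of the RNA, came first in 29.7% (28.5 to 30.98) of all members and in 32.6% (30.8 to 34.4) of those of 24 to 33 nt. Spliceosomal RNA sequences of that length began with T in 56.4% (54.5 to 58.2) of cases and mRNA sequences in 78.4%, while tRNA and rRNA sequences had 31.6% and 31.1%. Among sequences matched to a model, 28.6% (27.3 to 29.97) began with T, and T made up 27.9% of the bases of their parents. For matched box H/ACA fragments of 24 to 33 nt the share was 39.9% (33.0 to 47.1), against 27.9% of parent bases. Over all lengths H/ACA fragments had 36.4% (32.4 to 40.5), against 28.1%. At 15 to 18 nt T came first in 21.3% (18.2 to 24.6) of matched sequences, below the 27.7% of parent bases. At 24 to 33 nt it came first in 30.8% (28.9 to 32.9) of matched sequences, above the 28.0% of parent bases. Position 10 of members of 24 to 33 nt held A in 25.7% (24.1 to 27.4) of cases. At that length the share was 25.4% in ribosomal RNA, 25.8% in mRNA, 25.4% in miRNA hairpin and 16.03% in tRNA sequences. It was higher in spliceosomal RNA, 27.6% (25.97 to 29.25), in snoRNA annotations outside the naming rule, 26.99%, and in unannotated sequences, 28.5% (28.47 to 28.58).

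U3 was the named RNA with most fragments. It had 631 sequences, of which 584 matched a model, and only 27.1% of them mapped to 1 position, with a highest map number of 55. Rnu3b1 (chromosome 11, 87443237 to 87443452, in an intron of Tex14) and Rnu3b2 each matched 418. Rnu3a (chromosome 10, 40258467 to 40258680, between genes) matched 228, of which 124 were counted for it because they were absent from the Rnu3b1 model. Fragments covered all of Rnu3b1, 9.92% of its possible substrings of 15 to 36 nt were listed, and the coverage was highest at base 89, with 106 fragments. Of the Rnu3b1 fragments, 6.46% began within 3 nt of the annotated 5' end, and base 76 was the most used start.

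Among fragments that lay within a model, U8 and U13 differed in which part of the RNA was covered. Snord118 (chromosome 11, 69073427 to 69073561, between genes) had 116 of the 154 U8 sequences, and 87 of these covered base 64, in the inner part of the RNA. Only 4.31% of them began within 3 nt of the annotated 5' end and 3.45% ended within 3 nt of the 3' end. These shares leave out sequences that ran past an end of a model, which were 34 of the 154 U8 sequences (22.1%, 15.8 to 29.5). For U13 they were 7 of 86 (8.14%). Snord13, the U13 RNA (chromosome 8, 31149864 to 31149967), had 64 of 86 sequences, of which 6.25% began at the 5' end and 21.9% ended at the 3' end. U13 also had short fragments, with 31.4% (21.8 to 42.3) of 24 to 33 nt, against 52.6% (44.4 to 60.7) in U8 and 42.8% (38.9 to 46.8) in U3. The intervals of U13 and U8 do not overlap. A list drawn up under the heading of pre-rRNA processing (U3, U8, U13, U14, U17 and U22) has 14 models by name, and 7 of them matched any of 722 sequences. Being on the list does not show that role for each RNA. Here a model counted even where its sequences were counted for another copy as their single parent. Sequences annotated U14 (120), U17 (56) and U22 (44) fall outside the rule used here.

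**Figure D2:**
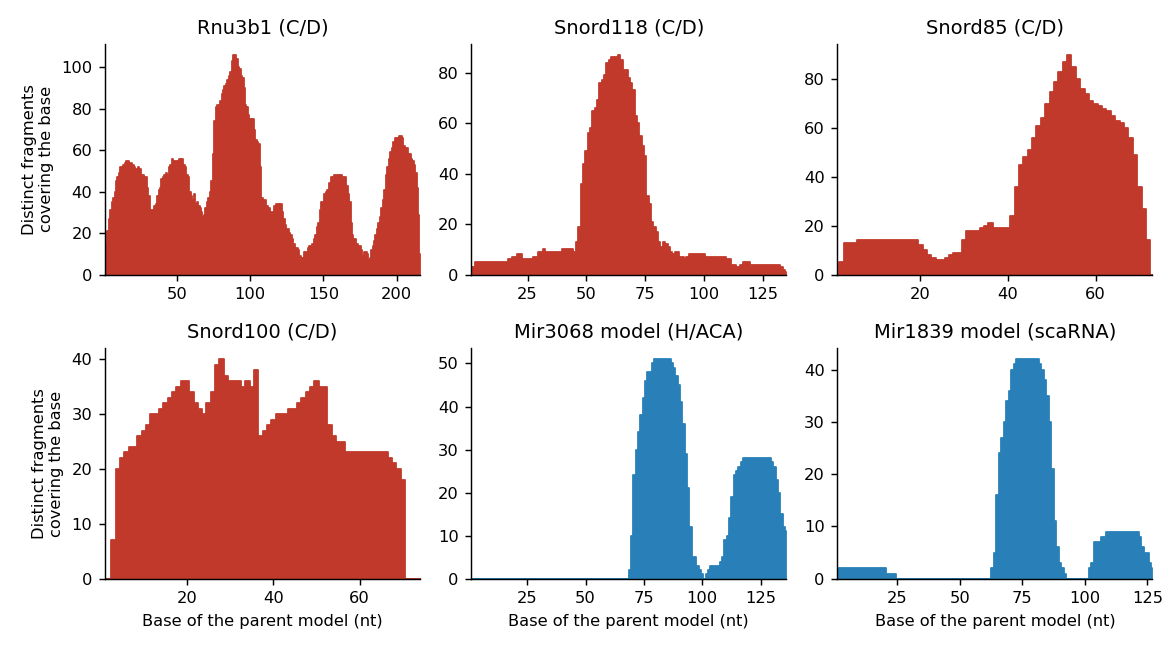
Number of distinct fragments covering each base (vertical) along 6 parent models, counted in nt from the first base of the model (horizontal), with box C/D parents in red and the H/ACA and scaRNA parents in blue. Rnu3b1 shows several peaks with the highest at base 89, Snord118 a single peak around base 64, and the Mir3068 and Mir1839 models a tall and a lower peak separated by uncovered or thinly covered bases.

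Ordinary box C/D snoRNAs gave most of the remaining fragments. Box C/D parents, U3, U8 and U13 included, held 3295 matched sequences from 76 parents, against 558 from 42 box H/ACA parents, 240 from 11 scaRNAs and 301 from 15 parents that the rules could not class. The median box C/D parent was covered over 91.1% of its bases, and 2.93% of its possible substrings of 15 to 36 nt were in the list. The median box H/ACA parent was covered over 46.4% of its bases with 0.465% of possible substrings, and the median scaRNA over 54.0% with 0.598%. Box H/ACA parents had a median of 11 fragments (lowest 1) and 133 nt, against 33.5 (lowest 3) and 76.5 nt in box C/D. The coverage was not adjusted for these differences. In 64 of the 144 parents the RNA lay in an intron of a host gene, with 2036 sequences. Another 41 overlapped an exon of a retained-intron transcript only (1253 sequences), 21 an exon of another transcript (594) and 18 lay between genes (511). The 2036 include the 418 sequences counted for Rnu3b1, in Tex14. Their share mapping to 1 position was 0%, and Rnu3b2 and Rnu3b3 each matched 418 as well. The locus of these U3 sequences is therefore not settled.

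The ordinary box C/D RNAs with most fragments under a name of their own had between 58 and 104 each. Snord85 (z50_snoRNA, chromosome 4, 130749634 to 130749706) had 104, and 90 of them covered base 54, on the 3' side of the RNA. Snord100 (z51_snoRNA) had 79 that were spread along the RNA, with at most 40 over any base. Snord95 (Z38), within Rack1, had 58, and Gm26224 (Z18), within Gas5, had 69. Snord82 (Z25), in an intron of the nucleolin gene Ncl, had 58. Among smaller sets, Gm24357 (SNO1191) had 54, Snord80 (Z15) 48, Snord4a (z17_snoRNA) 42, Snord96a (Z37) 35, Snord104 (z12_snoRNA) 34 and Snord1b (SNO1198) 30. Gm22489 (Z19), with 41, and Gm22192 (SNO1456) are among the parents that the rules could not class. SNO1456 had 92 sequences, 76 of which matched Gm22192 and its copies, and only 2.17% mapped to 1 position.

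Names with at least 30 sequences, 21 in all, differed in length and first base. The highest shares of 24 to 33 nt were 60.5% (44.4 to 75.02) in SNO1198, 59.8% (48.3 to 70.4) in Z38, 57.5% (52.2 to 62.7) in snmRNA and 55.4% (44.7 to 65.8) in SNO1456. The lowest were 20.8% (10.8 to 34.1) in SNO1204, 31.4% in U13, 35.7% (21.6 to 52.0) in z17_snoRNA and 42.8% in U3. T came first most often in SNO1399, 46.2% (34.8 to 57.8), z17_snoRNA, 42.9%, SNO1191, 39.3%, and Z15, 38.8%. It came first least often in Z25, 5.17% (1.08 to 14.4), SNO1204, 11.3%, Z19, 13.3%, and z50_snoRNA, 18.3% (11.4 to 27.05). With so few sequences per name most of these intervals overlap, but SNO1204 and Z38 are apart in length, and Z25 and SNO1399 in first base. These pairs were picked from opposite ends of the rankings, so their separation is no test of a difference. Fragments that share a 5' end also share their first base, which the intervals do not take into account.

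Fragment ends of box C/D RNAs gathered at short distances from the boxes. Among 51 box C/D parents with TGATGA within 40 nt of the 5' end and CTGA within 25 nt of the 3' end, U3 left out, there were 1861 fragments. Of these, 27.2% (25.2 to 29.3) began 5 or 6 bases before box C and 38.4% (36.1 to 40.6) ended 2 to 5 bases after box D. The end 2 bases after box D alone took 21.3%. The most used start lay 5 or 6 bases before box C in 33 of the 51 parents, and the most used end lay 2 to 5 bases after box D in 44. These windows were set after the distances were seen, so the shares and numbers of parents are no test of them. Wider windows, 3 to 8 bases before box C and 2 to 7 after box D, held 31.4% and 38.5%. Box C without box D was held by 36.3% (34.1 to 38.5) of the fragments, box D without box C by 43.1% (40.8 to 45.4), and neither by 20.6% (18.8 to 22.6). None held both boxes, and the longest sequences in the list are 36 nt. In Snord100, printed above, 13 fragments began 5 bases before box C and 18 ended 2 bases after box D. The letters of both boxes are in 71 of all 99 Snord models (71.7%) and in 39 of the 62 Snord parents with members (62.9%).

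**Figure D3:**
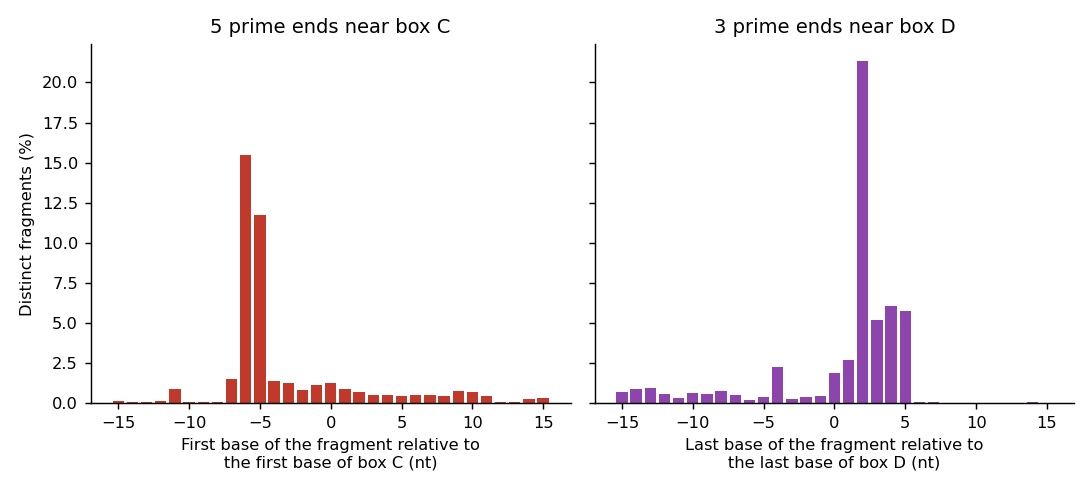
Percentage of 1861 distinct box C/D fragments (vertical) by the position of their first base relative to box C (left) and of their last base relative to box D (right), in nt, negative values lying upstream. First bases gather 5 and 6 bases upstream of box C, and last bases 2 bases downstream of box D.

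Relative to the annotated ends, 18.4% (17.3 to 19.6) of all 4394 matched fragments began within 3 nt of the 5' end and 29.3% (28.0 to 30.7) ended within 3 nt of the 3' end, while 52.3% did neither. In box C/D parents the shares were 19.5% and 24.7%. These shares, and those of single parents below, leave out the 294 members that ran past an end of a model. Such members were unevenly spread over names, with 51 of 85 in z12_snoRNA and 0 of 104 in z50_snoRNA. Among parents with at least 30 fragments, AF357428 had the highest share at the 5' end with 32 of 64 fragments (37.2% to 62.8%), followed by Snord45c with 47.7%, Snord19 with 43.5% and Snord50a with 42.2%. At the 3' end Snord58b had 68.8% (49.99 to 83.9), Snord88a 67.5%, Snord66 66.7% and Snord42a 63.6%. Several models, among them Snord69, Gm26224 and Snord91a, had no fragment within 3 nt of either annotated end. Fragments of Gm26224 began at base 7 at the earliest and ended at base 73 of 80 at the latest, and 14 of 69 shared the start at base 8.

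Shared 3' ends were used by more fragments than shared 5' ends. The 4394 matched fragments had 2248 distinct 5' ends, with 1.96 fragments each on average, and 1794 distinct 3' ends, with 2.45 each. At least 10 fragments shared an end at 38 of the 5' ends and at 77 of the 3' ends. Sequences that ran past an end of a model are not among the 4394, so ends outside the models are not counted. The fullest ladders held 17 fragments at a 5' end and 19 at a 3' end, and are among the sequences printed above.

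Box H/ACA fragments were shorter, and most of them began in a few stretches of the RNA. Of the 558, 49.3% (45.1 to 53.5) were 20 to 24 nt long and 35.5% (31.5 to 39.6) were 24 to 33 nt, against 31.02% (29.4 to 32.6) and 50.5% (48.8 to 52.2) of box C/D fragments. Neither pair of intervals overlaps. The median share of 20 to 24 nt over parents was 43.3% in the 42 box H/ACA and 31.1% in the 76 box C/D parents, whatever their number of fragments. The most frequent length of H/ACA fragments away from the annotated ends was 22 nt, and 60.3% (53.5 to 66.7) of these were 20 to 24 nt long. Among scaRNA fragments 47.1% (40.6 to 53.6) were 20 to 24 nt long.

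**Figure D4:**
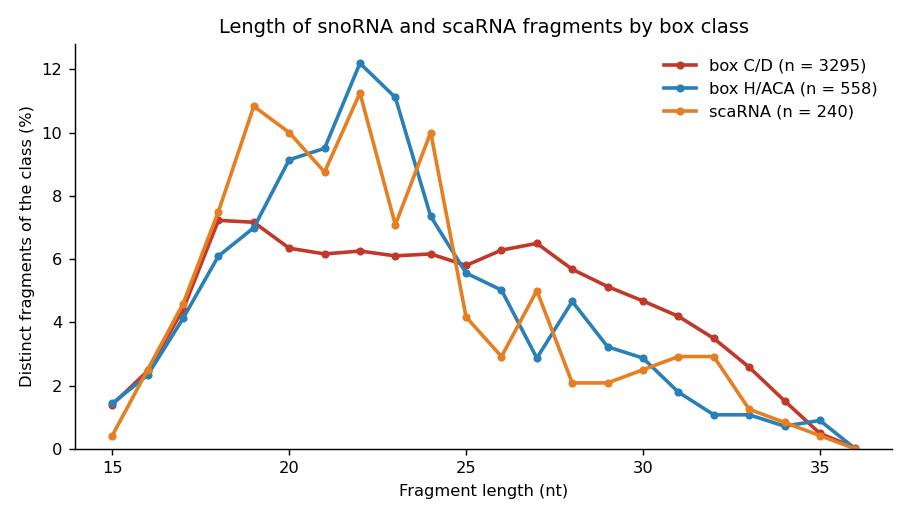
Length in nt (horizontal) against the percentage of distinct fragments of each class (vertical), for box C/D, box H/ACA and scaRNA parents. Box H/ACA fragments peak at 22 nt, box C/D fragments have no such peak, and the scaRNA line is uneven because it rests on 240 fragments.

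Starts of H/ACA fragments fell mostly in 3 stretches of the parent, described here after the values were seen. The first 5% of the RNA held 12.4% (9.75 to 15.4) of the starts, from 18 of the 42 parents. The stretch from 45% to 60%, where the hinge between the hairpins lies in a typical H/ACA RNA, held 26.5% (22.9 to 30.4), from 26 parents. The stretch from 75% to 90% held 53.2% (49.0 to 57.4), from 35 parents, and 52.9% of all H/ACA fragments ended in the last 5% of the RNA. Only 7.89% began elsewhere. A fragment of 15 to 36 nt that ends at the last bases must begin shortly before them. The last stretch of starts and the shared 3' end are therefore largely the same fragments, and do not show a further start site. In Snora65, 17 of 23 fragments ended at the last base and its most used start held 2. In Snora30 these numbers were 14 and 7 of 25. Sequences that ran past an end of a model are left out. In Snora7a, printed above, 10 of 35 fragments began at base 72, and Snora3, within Rpl27a, had 7 of 27 beginning at base 1 and 9 ending at its last base, 132. Without fragments inside miRNA hairpins the shares were 14.3%, 18.0% and 58.3%, so the order of the 3 stretches was unchanged.

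**Figure D5:**
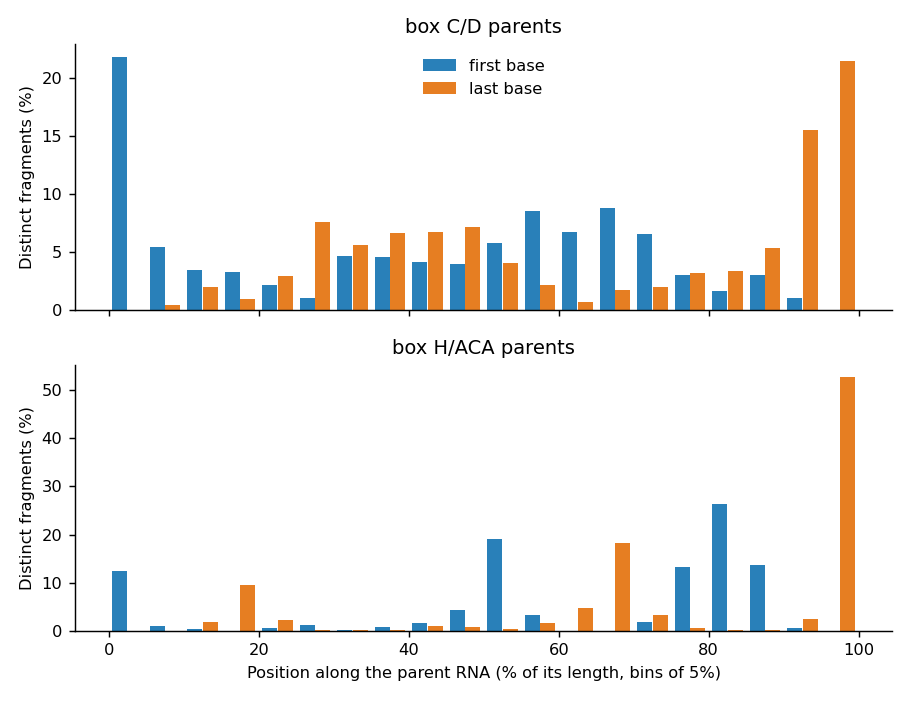
Percentage of distinct fragments (vertical) whose first base (blue) or last base (orange) falls in each 5% bin of the parent's length (horizontal), for box C/D parents (top) and box H/ACA parents (bottom). In H/ACA parents the first bases gather at the start, just past the middle and near 80% of the length, and 52.7% of last bases fall in the final bin. First bases near 80% and last bases in the final bin largely belong to the same fragments.

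Annotated miRNA hairpins that overlap snoRNA and scaRNA models held 316 matched fragments from 8 parents. They were most often 22 nt long, and 55.4% (49.7 to 60.9) were 20 to 24 nt, against 32.7% (31.2 to 34.1) of the 4078 fragments outside. The contrast was large in scaRNAs, with 65.5% (56.1 to 74.1) inside and 29.8% (21.96 to 38.7) outside. In H/ACA parents it was 57.3% (48.1 to 66.1) inside and 47% (42.2 to 51.8) outside, with intervals that overlap. The value of H/ACA fragments outside annotated hairpins was above the 30.9% (29.3 to 32.5) of box C/D fragments outside. The only box C/D parent with a hairpin, Gm24148, had 36.8% (26.1 to 48.7). Its annotated hairpin of 147 nt encloses the whole RNA of 80 nt, so all its 76 fragments count as inside.

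For each of 7 hairpins the mature miRNA whose 5' end most fragments shared, or an arm of equals, is given from RefSeq (GRCm38.p6), to show the ends the fragments were compared with. Capitals mark the seed, bases 2 to 8.
miR-3068-5p: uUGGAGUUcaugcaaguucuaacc
miR-3535: uGGAUAUGaugacugauuaccugaga
miR-1839-5p: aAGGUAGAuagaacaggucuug
miR-1843b-5p: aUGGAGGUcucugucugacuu
miR-1843a-5p: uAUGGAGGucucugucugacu
miR-664-3p: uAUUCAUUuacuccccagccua
miR-1291: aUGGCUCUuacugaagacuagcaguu
No pair of these 7 has the same seed. The 5' end of miR-1843a-5p lies 1 base before that of miR-1843b-5p in otherwise like letters, so their seeds are shifted copies. The exact mature sequence of each of these arms, which were picked for their shared 5' ends, was in the list. Those of miR-1843b-3p, with 0 fragments at its 5' end, and miR-3084-3p, with 2, were not listed. Fragments at the same 5' end numbered 14 for miR-3068-5p (16 to 30 nt), 12 for miR-3535 (17 to 30 nt) and 11 for miR-1839-5p (17 to 27 nt). There were 7 for miR-1843b-5p, 6 for miR-1843a-5p, 4 for miR-664-3p and 6 for miR-1291. Fragments that began 1 or 2 bases downstream of the mature 5' end numbered 10 for miR-1843a-5p, more than at the end itself, 11 for miR-1839-5p, 10 for miR-3068-5p and 0 for miR-1291. The 10 for miR-1843a-5p include the 7 at the 5' end of miR-1843b-5p, since the first 15 letters from there are the same in both miRNAs. Starts upstream of the mature 5' end are not in these numbers. In the Mir3068 model, where miR-3068-5p begins at base 71, 10 fragments covered base 70 and 0 covered base 68. These 10 therefore began 1 or 2 bases upstream.

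The miRNA-bearing parents differed in how far their fragments resembled miRNAs in length. The Mir3068 model, an H/ACA-type RNA of 136 nt in an intron of Alkbh1 (chromosome 12, 87437682 to 87437817), had 79 fragments, and 0 of them began before base 69. The most used start, base 71, was the 5' end of miR-3068-5p and was shared by 14. The Mir1839 model (SNO1204) had 53, of which 51 lay in the hairpin and 20.8% were 24 to 33 nt. Scarna3a had 42, with 76.2% of 20 to 24 nt, and its relative Scarna3b, in an intron of Dcaf5, had 27 of its own, with 88.9%. Gm24148 (SNO1399), in Ncl, had 76 fragments over its whole 80 nt, of which 48.7% were 24 to 33 nt, close to the box C/D value. Its most used start, base 1, is also the 5' end of miR-3535.

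Host genes and imprinted clusters were represented unevenly. Gas5, a noncoding host of many box C/D snoRNAs, held 6 parents with 243 sequences, and 29 further sequences matched its transcripts outside a model. Ncl held 3 parents with 140, Rpl23a 3 with 127, and Gnl3, a nucleolar GTPase gene, 2 with 125. Nop56, whose protein is a core component of box C/D particles, hosted 4 parents with 110. No parent lay in Rpl13a or Snhg1, hosts of snoRNAs such as U33 and U27, which were annotated under names outside the rule used here with 51 and 83 sequences. Of the imprinted clusters, Snord116 had 17 models and 5 sequences, each of which matched several copies. Snord64 had 18 sequences, and its neighbour Snord107 had a model and no sequence. In the imprinted region around Rian on chromosome 12, AF357428 had 64 sequences, AF357425 27, AF357341 25 and Gm26922 18. A further 43 sequences matched Rian transcripts outside a model. No model is named Snord113, Snord114 or Snord115 in GENCODE M21. Of 48 scaRNA models, 12 matched any of the 240 scaRNA sequences.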

How the data were processed

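Small RNA libraries of mouse testes, 8 in number, were made from size-selected total RNA, per the labels' protocols. The authors deposited a single table of 3 columns for the whole series: per the file headers, a distinct sequence, its map number (the number of positions it mapped to, a whole number of another kind than a read count) and an annotation. None of the columns (0) is tied to a library and none holds read numbers, so the depth of each library is unknown. Aligner, genome build and annotation sources are not given in the sources used here.

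Members were chosen by annotation name. The members and gene lists were chosen with earlier results of these data known. Sequences were matched exactly, over their whole length and on both strands, to 1559 GENCODE M21 parent transcripts (GRCm38) with Python 3.11.15 and pandas 2.3.3, and unmatched ones to all other transcripts. A sequence was said to run past an end where at least 12 nt of it overlapped the end of a model. Parents were classed by gene name. Others were classed as box C/D with TGATGA in the first 30 and CTGA in the last 25 bases, or as box H/ACA when longer than 100 nt with ACA or ATA 3 bases before the end. The tolerance at annotated ends was 3 nt. Exact 95% intervals were computed with scipy 1.17.1, and figures drawn with matplotlib 3.10.9. The functions were tested on simulated data. Groups could not be compared, and no p-value was computed.

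The names given are the 20 with most sequences, U3, U8 and U13, and the 4 highest and 4 lowest in length and first base, and the parents those with the 4 highest shares at either end, each among those with at least 30 sequences. Other names were chosen after their values were seen. Other length windows, tolerances and subsets were tried as alternatives.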

Additional observations from a re-analysis of the deposited data

How the results depend on the processing

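Of 27 alternatives, 15 left their value within its counting interval (or, for the number of sequences, within 1.5 times), and 12 moved it beyond. None changed which of box C/D and box H/ACA had the higher share of 24 to 33 nt among the 4 alternatives run for it. The median over parents with at least 30 sequences rests on 2 box H/ACA parents. The share of 24 to 33 nt, 48.3% as reported, was 39.6% with a window of 25 to 32 nt and 51.9% for sequences that map to 1 position. T came first in 29.7% of all lengths and in 32.6% at 24 to 33 nt. The share mapping to 1 position, 76.1%, was 74.6% for sequences with a model match and 82.6% without U3. The share at the annotated 5' end, 18.4%, was 10.5% with a tolerance of 1 nt, 25.9% with 10 nt, 20.4% for 24 to 33 nt only and 20.5% without U3. The share at the 3' end, 29.3%, was 43.3% with a tolerance of 10 nt and 30.7% without U3. The antisense share, 0.295%, was 0.122% for sequences that map to 1 position. The settings that restrict to model matches, leave out U3 or hairpins, class by gene name only or restrict the antisense share were chosen after seeing the data.

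No paired analysis was possible because the list ties no sequence to a library. Without read numbers, a sequence read once counts as much as an abundant RNA, and the depth that limits which fragments were listed is unknown. Ends are those of the GENCODE models, and sequences that ran past one are left out of all values on ends.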

Other observations

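snoRNA annotations outside the naming rule, such as U14, U27 and names beginning with snr, add 1590 distinct sequences under 30 names. Their share of 24 to 33 nt was 47.3% (44.8 to 49.8), and T came first in 37.2% (33.8 to 40.8) of those, against 48.3% and 32.6% among the members. Their share mapping to 1 position was 88.2%, against 76.1%.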
